A study of Mus musculus with 12 samples.

Results

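Tppp3, Rarres2, Prkcq, Dbndd2, Adamtsl4, Hhatl, Prrg1 and Myo1e are 8 of the 24985 genes counted in the dorsal hippocampus of 12 mice. They were selected on 2 measured contrasts: each was lower after tau injection than after PBS injection on the control diet, and each responded to dietary acetate in opposite senses, or to a different extent, in the PBS-injected and tau-injected animals. Those contrasts are therefore given for the 8 genes as description, without a test. All 8 were among the 14742 genes that passed a filter on low counts.

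The 12 mice were C57Bl6/J, wild type and injected unilaterally at 6 months of age, with 3 mice in each of 4 groups. The PBS control group received PBS and standard chow, the PBS acetate group PBS and chow with 5% sodium acetate, the tau control group 1 µg of AD tau and standard chow, and the tau acetate group 1 µg of AD tau and the acetate chow. AD tau is insoluble tau extracted from the cortex of people with Alzheimer's disease, and it seeds aggregation of the animal's own tau around the injection site. All mice had been through a memory task and were killed 24 hours after remote recall. Per the study's methods, the control chow was matched in calories to the acetate chow.

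Acetate is converted to acetyl-CoA, the acetyl donor for histones and for lipids. Myelin, the lipid-rich sheath made by oligodendrocytes, and the ciliated ependyma that lines the ventricles are both represented in a hippocampal dissection. Mbp encodes a structural protein of myelin, Foxj1 the transcription factor that drives motile cilia in ependymal cells, and Ttr the thyroxine carrier secreted by the choroid plexus. These 3 genes served as references for how much of each tissue a library carried. In bulk RNA, fewer cells of a type and less RNA per cell cannot be told apart.

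The 8 genes encode unrelated proteins. Tppp3 is a relative of the tubulin polymerization-promoting protein, and Myo1e is a long-tailed class I myosin that links actin to membranes. Rarres2 is chemerin, a secreted chemoattractant, and Adamtsl4 is a matrix protein that binds fibrillin. Prkcq is protein kinase C theta, best known for signalling below the T-cell receptor, and Dbndd2 carries a dysbindin domain. Hhatl is a membrane protein related to hedgehog acyltransferase, and Prrg1 is a transmembrane protein with a vitamin K-dependent Gla domain.

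On GRCm38 (GENCODE annotation) the genes lie on 5 autosomes and the X chromosome; Prkcq and Dbndd2 share chromosome 2 and Hhatl and Myo1e share chromosome 9. Tppp3 spans chr8:105467493-105471526, Rarres2 chr6:48569696-48572789, Prkcq chr2:11172108-11301222 and Dbndd2 chr2:164486106-164493319. Adamtsl4 spans chr3:95676201-95687917, Hhatl chr9:121784016-121792507, Prrg1 chrX:78449613-78583896 and Myo1e chr9:70207350-70399766. All are protein coding. Exons of Dbndd2 overlap on the same strand with the annotated gene Gm20458. That gene is not among those counted, so reads counted for Dbndd2 in the shared exons could come from either gene.

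RefSeq promoter windows of 300 bases, from 250 before to 50 after a transcript's start on GRCm38.p6, were matched for 5 of the 8 genes and gave 7 windows. They were searched on both strands for ACAAAG (SOX factors, which include the oligodendrocyte regulator SOX10), CTGGNAC (MYRF, the regulator of myelin genes), GTTGCC (an RFX site, of the family that acts with FOXJ1 on cilia genes), GTAAACA (forkhead factors), CAGCTG (an E-box) and TATAAA (the TATA box). The 3 windows that held a SOX or MYRF match, of Prkcq, Hhatl and Myo1e, are shown. Windows of Adamtsl4 and Prrg1 held neither, and Tppp3, Rarres2 and Dbndd2 had no window. In the within-group test against Mbp given below, Adamtsl4 and Prrg1 passed, and Prkcq, Hhatl and Myo1e did not. Capitals mark the match, which reads in reverse complement where it lies on the other strand.
Prkcq, chr2:11172132-11172431, plus strand: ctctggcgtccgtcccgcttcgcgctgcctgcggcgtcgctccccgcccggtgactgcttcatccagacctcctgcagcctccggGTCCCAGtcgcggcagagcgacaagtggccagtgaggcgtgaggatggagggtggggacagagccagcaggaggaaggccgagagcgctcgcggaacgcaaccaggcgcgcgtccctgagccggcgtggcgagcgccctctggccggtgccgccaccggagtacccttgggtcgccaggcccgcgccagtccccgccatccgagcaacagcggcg
Hhatl, chr9:121792458-121792757, minus strand: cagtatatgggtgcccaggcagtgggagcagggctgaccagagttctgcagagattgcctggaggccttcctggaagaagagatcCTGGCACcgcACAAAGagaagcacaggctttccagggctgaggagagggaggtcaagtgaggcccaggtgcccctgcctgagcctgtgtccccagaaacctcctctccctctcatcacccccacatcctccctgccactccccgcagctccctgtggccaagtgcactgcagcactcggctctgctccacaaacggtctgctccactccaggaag
Myo1e, chr9:70207100-70207399, plus strand: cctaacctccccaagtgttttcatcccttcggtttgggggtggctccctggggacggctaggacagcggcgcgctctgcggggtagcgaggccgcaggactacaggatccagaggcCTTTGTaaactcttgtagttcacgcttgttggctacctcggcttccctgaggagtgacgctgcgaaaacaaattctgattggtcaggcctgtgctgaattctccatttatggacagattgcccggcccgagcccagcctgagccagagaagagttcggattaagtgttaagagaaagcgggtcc
The Prkcq window holds the MYRF letters, the Myo1e window the SOX letters, and the Hhatl window both, with 3 bases between them. The SOX letters occurred in 2 of the 7 windows and in 18.7% of all 32851 RefSeq windows, and the MYRF letters in 2 of 7 and in 19.3%. The E-box was present in 2 windows, both of Prrg1 and overlapping each other, against 16.3% of all windows. The RFX letters (12.5% of all windows), the forkhead letters (3.65%) and the TATA box (13.6%) were in 0 of the 7. Letters alone do not make a binding site, and with 7 windows these shares are a description.

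Libraries held 12983233 to 20218340 counted reads. Between 52 and 177 reads per mouse were counted for Rarres2 and between 82 and 194 for Prrg1, the least counted of the 8, against 1789 to 3645 for Dbndd2. Mice of 1 group differed by more than counting noise, and no pair of libraries was close enough to be a repeat. The labels give the mice as male, whereas the inactive X chromosome's RNA, Xist, had 13583 to 25991 reads in every library and 4 genes of the Y chromosome (Ddx3y, Uty, Eif2s3y and Kdm5d) had 0 reads in total. The animals appear female by these genes in all 4 groups, so that sex does not separate the groups. Levels below are CPM, counts scaled to the size of each library after TMM normalization, and differences are log2 fold changes from edgeR with their standard errors (SE).

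Per kilobase of exon, the order of the mean levels was Dbndd2 (35.5 CPM per kb), Tppp3 (14.98), Hhatl (4.66), Adamtsl4 (3.11), Myo1e (2.70), Rarres2 (2.36), Prkcq (1.65) and Prrg1 (0.685). Mbp stood at 319 CPM per kb, Ttr at 72.1 and Foxj1 at 4.43. Dbndd2 and Tppp3 were therefore well above the rest of the 8, while Hhatl, Adamtsl4, Myo1e and Rarres2 lay closer together and kept this order of means in each of the 4 groups. The nearest neighbours of these were Myo1e and Rarres2 in tau acetate mice, with means of 2.99 and 2.96 CPM per kb.

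**Figure D1:**
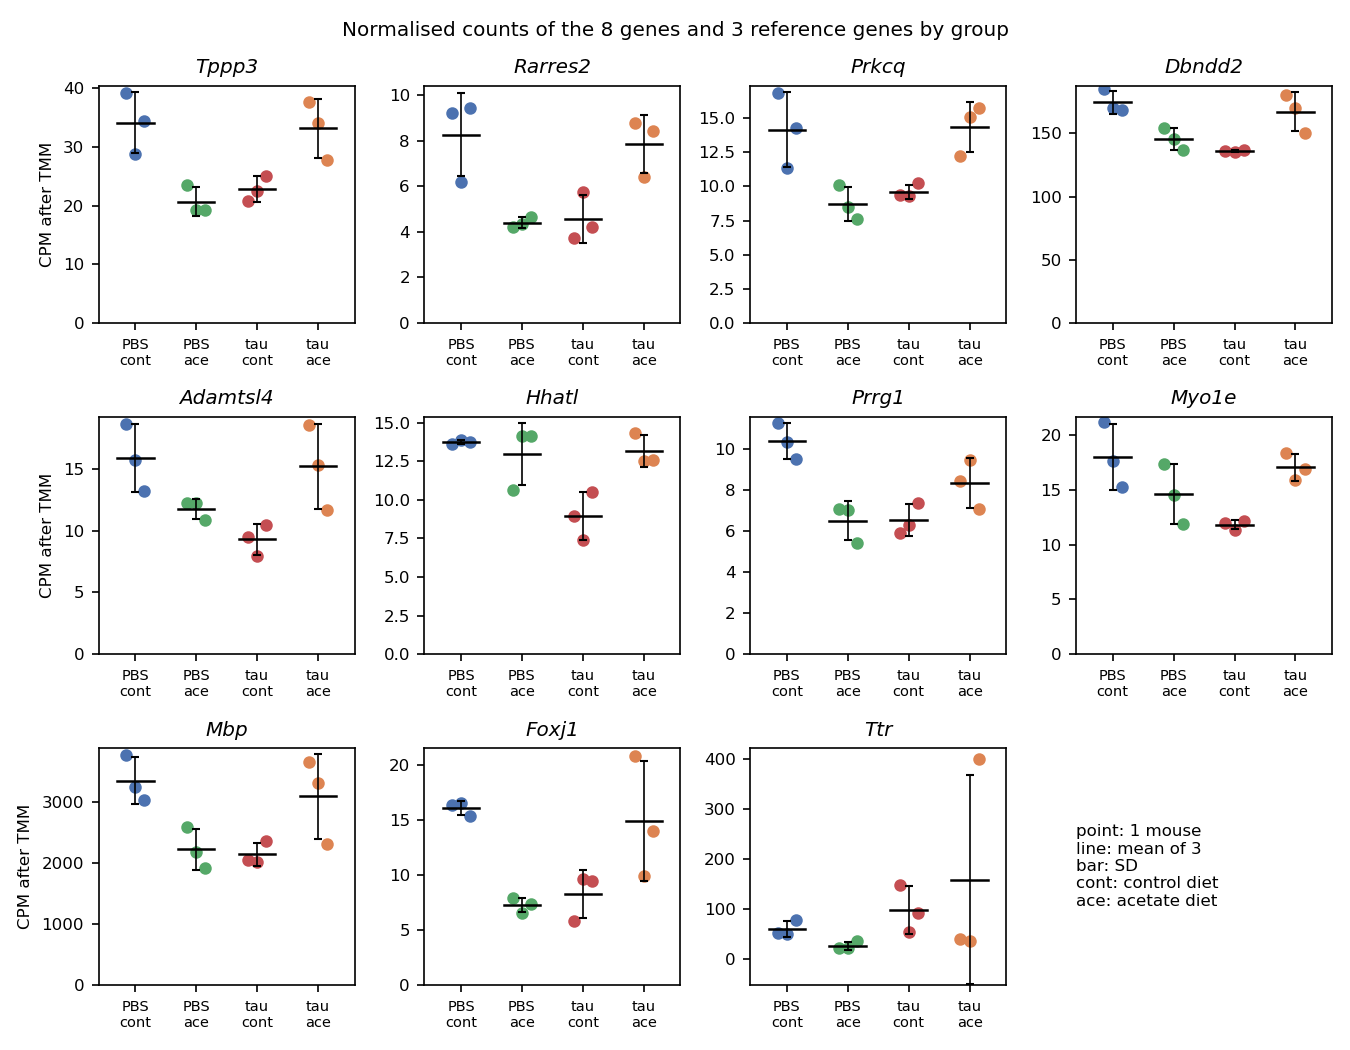
Normalised counts (CPM after TMM, linear axes; the axis of Ttr runs below 0 only to hold its error bar) of the 8 genes and of Mbp, Foxj1 and Ttr; each point is 1 mouse, lines are means of 3 mice and bars are SD. The 8 genes, Mbp and Foxj1 had higher means in PBS control and tau acetate mice than in PBS acetate and tau control mice, except that Hhatl was low in tau control mice alone; Ttr reached 399 CPM in 1 tau acetate mouse.

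The genes of the cytoskeleton, Tppp3 and Myo1e, had their lowest means in different groups. Tppp3 had 39.1, 28.8 and 34.5 CPM in the 3 PBS control mice, 23.5, 19.2 and 19.3 in PBS acetate, 20.7, 22.5 and 25.1 in tau control, and 37.7, 34.0 and 27.8 in tau acetate mice. Every PBS control and tau acetate mouse was above every mouse of the other groups. Tau injection went with a log2 difference of -0.59 (SE 0.131) on the control diet and 0.69 (SE 0.129) on the acetate diet. Myo1e had 21.2, 17.7 and 15.2 CPM in PBS control, 17.4, 14.6 and 11.9 in PBS acetate, 12.0, 11.3 and 12.1 in tau control, and 18.4, 15.9 and 16.9 in tau acetate mice. Here the PBS acetate mice reached into the range of both tau groups, and the tau control mice were tightly grouped at the bottom. The corresponding log2 differences of Myo1e were -0.62 (SE 0.136) and 0.23 (SE 0.129).

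Of the secreted proteins, Rarres2 showed the widest swing of the 8. Rarres2 had 9.20, 6.18 and 9.41 CPM in PBS control, 4.20, 4.33 and 4.66 in PBS acetate, 3.75, 5.77 and 4.20 in tau control, and 8.77, 6.41 and 8.41 in tau acetate mice. The lowest PBS control mouse and the highest tau control mouse were close, but the groups did not overlap. Its log2 differences between tau and PBS were -0.85 (SE 0.195) on the control diet and 0.84 (SE 0.190) on the acetate diet. Adamtsl4 had 18.7, 15.8 and 13.2 CPM in PBS control, 12.3, 12.2 and 10.9 in PBS acetate, 9.52, 7.96 and 10.4 in tau control, and 18.6, 15.4 and 11.7 in tau acetate mice. The lowest tau acetate mouse of Adamtsl4 lay within the PBS acetate range, whereas the tau control mice were below all others. Its log2 differences were -0.78 (SE 0.167) and 0.38 (SE 0.157).

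The signalling genes Prkcq and Dbndd2 differed in scale. Prkcq had 16.8, 11.4 and 14.3 CPM in PBS control, 10.1, 8.51 and 7.60 in PBS acetate, 9.38, 9.28 and 10.2 in tau control, and 12.2, 15.1 and 15.7 in tau acetate mice. Its PBS acetate and tau control mice covered overlapping low ranges, and the other groups a higher one. The log2 differences between tau and PBS were -0.57 (SE 0.147) on the control and 0.71 (SE 0.144) on the acetate diet. Dbndd2 had 184.9, 169.7 and 168.8 CPM in PBS control, 154.2, 145.6 and 136.4 in PBS acetate, 136.2, 135.0 and 136.5 in tau control, and 180.6, 170.1 and 150.3 in tau acetate mice. The tau control mice were almost equal, and 1 tau acetate mouse fell into the PBS acetate range. With -0.36 (SE 0.0649) and 0.20 (SE 0.0642), its log2 differences were the least steep of the 8 on the control diet, with the least error.

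The membrane proteins Hhatl and Prrg1 departed from the common pattern in different ways. Hhatl had 13.6, 13.9 and 13.8 CPM in PBS control, 10.7, 14.1 and 14.2 in PBS acetate, 8.94, 7.43 and 10.5 in tau control, and 14.4, 12.5 and 12.6 in tau acetate mice. Only its tau control mice stood below the rest, and 2 of the 3 PBS acetate mice exceeded all PBS control mice. The log2 difference of Hhatl between acetate and control diet was -0.08 (SE 0.129) in PBS-injected and 0.56 (SE 0.136) in tau-injected mice. Prrg1 had 11.3, 10.4 and 9.55 CPM in PBS control, 7.10, 7.01 and 5.43 in PBS acetate, 5.91, 6.30 and 7.40 in tau control, and 8.47, 9.50 and 7.07 in tau acetate mice. Its tau acetate mice lay between the PBS control mice and the low groups, and the lowest of them overlapped both low groups. The log2 difference of Prrg1 between diets was -0.67 (SE 0.149) in PBS-injected and 0.36 (SE 0.153) in tau-injected mice.

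**Figure D2:**
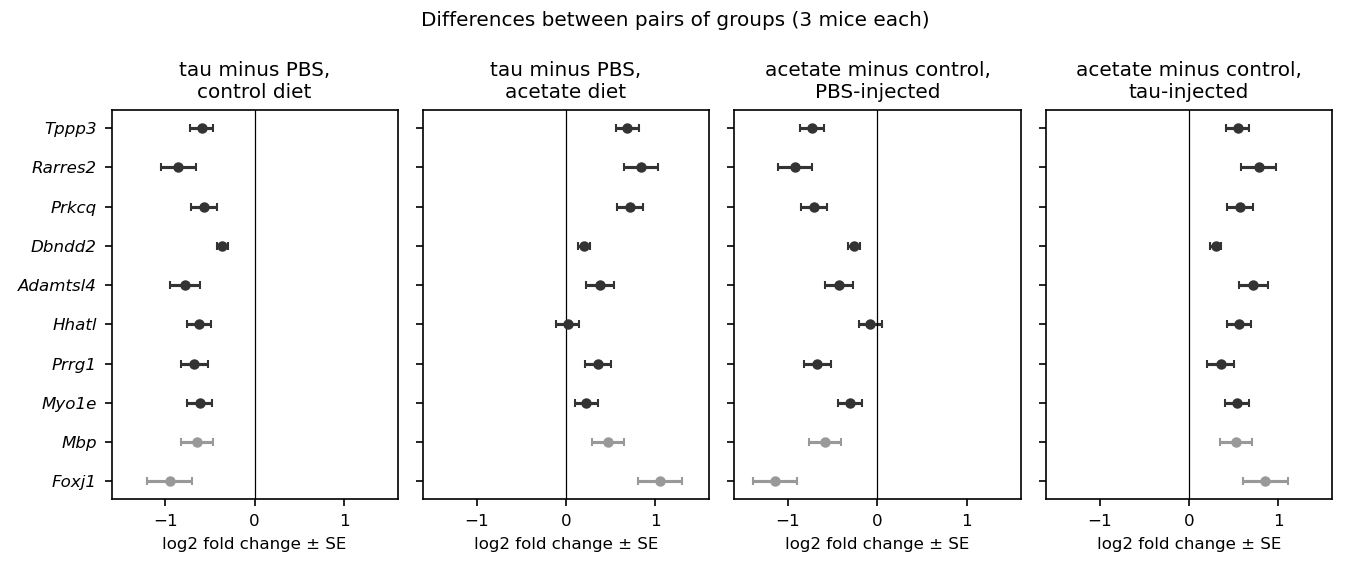
Log2 fold changes with SE (edgeR, 3 mice per group) of the 8 genes (dark) and of Mbp and Foxj1 (grey) in the 4 comparisons between pairs of groups. On the control diet the 8 genes lay between -0.85 and -0.36, and in tau-injected mice acetate went with differences of 0.30 to 0.78, whereas Hhatl was near 0 in the other 2 comparisons.

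Over the 8 genes, the median log2 difference between tau and PBS was -0.62 on the control and 0.37 on the acetate diet. For acetate against control diet it was -0.55 in PBS-injected and 0.56 in tau-injected mice. The medians over all genes tested were within 0.01 of 0 in each comparison. The interaction, defined as the acetate difference in tau-injected mice minus that in PBS-injected mice, ranged from 0.56 (Dbndd2, SE 0.0913) to 1.70 (Rarres2, SE 0.272), with a median of 1.09. Tppp3 (1.28, SE 0.184), Prkcq (1.28, SE 0.206), Adamtsl4 (1.15, SE 0.229) and Prrg1 (1.03, SE 0.213) lay above 1, and Myo1e (0.84, SE 0.188) and Hhatl (0.64, SE 0.187) below. Since these values chose the genes, they are a description.

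The groups did not overlap, with tau lower, for 8 of 8 genes on the control diet, where 6.84% of all genes tested had the same separation. With tau higher on the acetate diet, groups were separate for 3 of 8 (Tppp3, Rarres2 and Prkcq; 7.51% of all genes). With acetate lower in PBS-injected mice they were separate for 6 of 8 (not Hhatl or Myo1e; 13.2%), and with acetate higher in tau-injected mice for 7 of 8 (not Prrg1; 6.66%). These counts follow from how the genes were picked. By edgeR, called here and below at an adjusted p below 0.1, 0.0136% of all genes (2 genes) passed for tau on the control diet and 1.56% (230 genes) for the interaction. The pattern was shared by genes beyond the 8. In all, 135 genes were lower with tau on the control diet at an unadjusted p below 0.05 and had a called interaction above 0. Of the 8 genes 7 are among them, without Hhatl. Both criteria use the PBS control and tau control means, so they are coupled and such an overlap is partly built in. An interaction above 0 was called for 164 genes.

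The average acetate effect is the mean of the acetate differences in PBS-injected and tau-injected mice. It combines the group means in a way that is orthogonal to the contrasts that chose the genes, and was tested. The acetate difference was below 0 in PBS-injected and above 0 in tau-injected mice for 8 of 8 genes. As far as such opposite signs chose the genes, their mean lies near 0 by selection. A lack of calls among the 8 then does not show that an average effect is absent. Of the 8 genes 0 were called by edgeR, where 5.76% of all genes tested were called. Of the 8, 1 had an unadjusted p below 0.05, and DESeq2 called 0 as well. Hhatl was nearest, at a log2 difference of 0.24 (95% interval 0.05 to 0.44; edgeR adjusted p = 0.174). The estimates for Tppp3 (-0.09, 95% interval -0.29 to 0.10), Rarres2 (-0.07, -0.36 to 0.22), Prkcq (-0.07, -0.28 to 0.15) and Dbndd2 (0.02, -0.08 to 0.11) lay near 0. Those of Prrg1 (-0.16, -0.38 to 0.07), Adamtsl4 (0.14, -0.10 to 0.39) and Myo1e (0.11, -0.08 to 0.31) were somewhat further from 0. Adjusted p ranged from 0.174 to 0.885 over the 8, and 4 estimates were above and 4 below 0. The intervals leave room for an average change of up to 0.44 on the log2 scale for Hhatl and up to 0.11 for Dbndd2.

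Relatives of the 8 genes were tested for tau on the control diet, the interaction and the average acetate effect, and Myo1d alone had a called interaction. Tppp, the family's founding member, had a log2 difference of -0.10 for tau on the control diet, while its average acetate effect of -0.15 (SE 0.0421, edgeR adjusted p = 0.0637) was called lower. That call ended without PBS control mouse 1 or 3, PBS acetate mouse 1 or 2, tau control mouse 3 or tau acetate mouse 3, at adjusted p up to 0.204. Of the chemerin receptors, Cmklr1 and Ccrl2 passed the filter and 0 were called in these 3 comparisons by edgeR. Among 8 other protein kinase C genes 0 were called in the same 3, with the widest difference in Prkcd (interaction 1.55, SE 0.744, edgeR adjusted p = 0.434). Dbndd1, the paralog of Dbndd2, was lower with acetate on average (-0.51, SE 0.114, edgeR adjusted p = 0.0240). Of 8 ADAMTS-like and fibrillin genes, Adamtsl5 (0.52, SE 0.124, edgeR adjusted p = 0.0308) and Fbn1, which encodes fibrillin-1 (0.49, SE 0.144, edgeR adjusted p = 0.0967), were higher with acetate on average. The call of Fbn1 held only without PBS acetate mouse 3 or tau acetate mouse 2, and otherwise adjusted p reached 0.223, whereas those of Dbndd1 and Adamtsl5 held with each mouse left out. Of 6 membrane-bound O-acyltransferase genes 0 were called in the 3, with Mboat1 furthest from 0 (interaction 1.12, SE 0.325, edgeR adjusted p = 0.130). Of the 3 other Prrg genes (Prrg2, Prrg3 and Prrg4) 0 were called in the 3 comparisons, with Prrg4 furthest (interaction 1.36, SE 0.729, edgeR adjusted p = 0.457). Of 7 other class I myosins, Myo1d had a called interaction in the direction of Myo1e (0.81, SE 0.190, edgeR adjusted p = 0.0755), which held in 3 of 12 cases of a mouse left out (without PBS control mouse 3, PBS acetate mouse 1 or tau acetate mouse 3).

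The 3 reference genes differed in how far they shared the pattern. Mbp had 3779, 3242 and 3028 CPM in PBS control, 2588, 2183 and 1920 in PBS acetate, 2056, 2010 and 2364 in tau control, and 3655, 3316 and 2312 in tau acetate mice. The PBS control mice were above both low groups, and tau acetate mouse 3 fell into the low range. The log2 difference of Mbp for tau on the control diet was -0.64 (SE 0.178, edgeR adjusted p = 0.351) and its interaction was 1.12 (SE 0.252, adjusted p = 0.104). The interaction of Mbp passed without tau acetate mouse 3 (edgeR adjusted p = 0.00941) and by DESeq2 (adjusted p = 0.00341). Foxj1 had 16.3, 16.5 and 15.3 CPM in PBS control, 7.88, 6.55 and 7.35 in PBS acetate, 5.77, 9.62 and 9.46 in tau control, and 20.8, 9.92 and 13.9 in tau acetate mice. High and low groups of Foxj1 did not overlap. Its interaction of 2.00 (SE 0.351, edgeR adjusted p = 0.0466) passed the threshold, except without PBS acetate mouse 2 (adjusted p = 0.155).

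Ttr did not share the pattern. It had 50.8, 49.4 and 78.4 CPM in PBS control, 22.2, 21.4 and 35.9 in PBS acetate, 147.7, 53.7 and 91.2 in tau control, and 39.99, 36.7 and 398.9 in tau acetate mice. Tau acetate mouse 3 stood far above all others, and the other two of its group were below every PBS control mouse. The log2 difference of Ttr for tau on the control diet was 0.71 (SE 0.920, edgeR adjusted p = 0.870), and its interaction, 1.87 (SE 1.33, adjusted p = 0.632), became -0.17 when that mouse was left out. In the same mouse, Tppp3, Dbndd2, Adamtsl4 and Prrg1 had the lowest values of their group, and Prkcq the highest. Without it the interaction of the 8 genes ranged from 0.63 to 1.65, with a median of 1.17.

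Within each group, 1 mouse held most of the highest values. PBS control mouse 1, PBS acetate mouse 1 and tau acetate mouse 1 had the highest value of their group for 6 of the 8 genes each, and tau control mouse 3 for 7 of 8. In all 4 groups this was also the mouse with the most Mbp.

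Differences between mice of the same group did not choose the genes and were tested. Log2 CPM of each gene had the group means subtracted and was correlated over the 12 mice with that of Mbp, Foxj1 or Ttr, by an exact two-sided permutation over all orders of mice within groups, and p-values were adjusted over the 24 pairs. The smallest p that these orders can give is 0.000772. All genes of a mouse come from the same library. The share of all genes that would pass this test against Mbp, Foxj1 or Ttr was not computed. Whether passing sets a gene apart from other genes was therefore not tested. Dbndd2 followed Mbp most closely, with r = 0.958 (exact permutation p = 0.000772, adjusted p = 0.00926) and rho = 0.979 (p = 0.000772, adjusted p = 0.0185). Adamtsl4 followed at r = 0.888 (exact permutation p = 0.000772, adjusted p = 0.00926) and rho = 0.934 (p = 0.00154, adjusted p = 0.0185). In both genes a mouse with more Mbp than its group mean had, as a rule, more of the gene, and the relation stayed positive without the 2 mice farthest in Mbp (r = 0.910 and 0.790).

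Tppp3 (r = 0.832, exact permutation p = 0.0123, adjusted p = 0.0741) and Prrg1 (r = 0.831, p = 0.0108, adjusted p = 0.0741) also passed the threshold of 0.1. By rank they did not pass (rho = 0.781 and 0.805, exact permutation p = 0.0239 and 0.0193, both adjusted p = 0.115). Leaving out single mice ended the call of Tppp3 in 9 of 12 cases and that of Prrg1 in 9 of 12, with r never below 0.755 and 0.764 and adjusted p up to 0.267. The call of Tppp3 held only without PBS control mouse 2, PBS control mouse 3 or tau control mouse 2, and that of Prrg1 only without tau control mouse 2, tau acetate mouse 1 or tau acetate mouse 2. The calls of Dbndd2 and Adamtsl4 held in 12 of 12, with adjusted p up to 0.0556 and 0.0926.

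The other 4 genes did not pass against Mbp. Myo1e had r = 0.645 (exact permutation p = 0.0355, adjusted p = 0.142), which rose to 0.930 without tau acetate mice 3 and 1. Prkcq (r = 0.156, exact permutation adjusted p = 0.914) behaved similarly, with r = 0.761 without the same mice, so that its value rests on them. Hhatl (r = 0.036, adjusted p = 0.914 by the exact permutation test) and Rarres2 (r = -0.159, adjusted p = 0.914) stayed near 0 or below, at -0.185 and -0.156 without those mice. Rarres2 and Hhatl thus shared the group pattern of Mbp to differing degrees without a detectable relation from mouse to mouse within groups. With 3 mice per group, a weak relation would not be detectable.

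**Figure D3:**
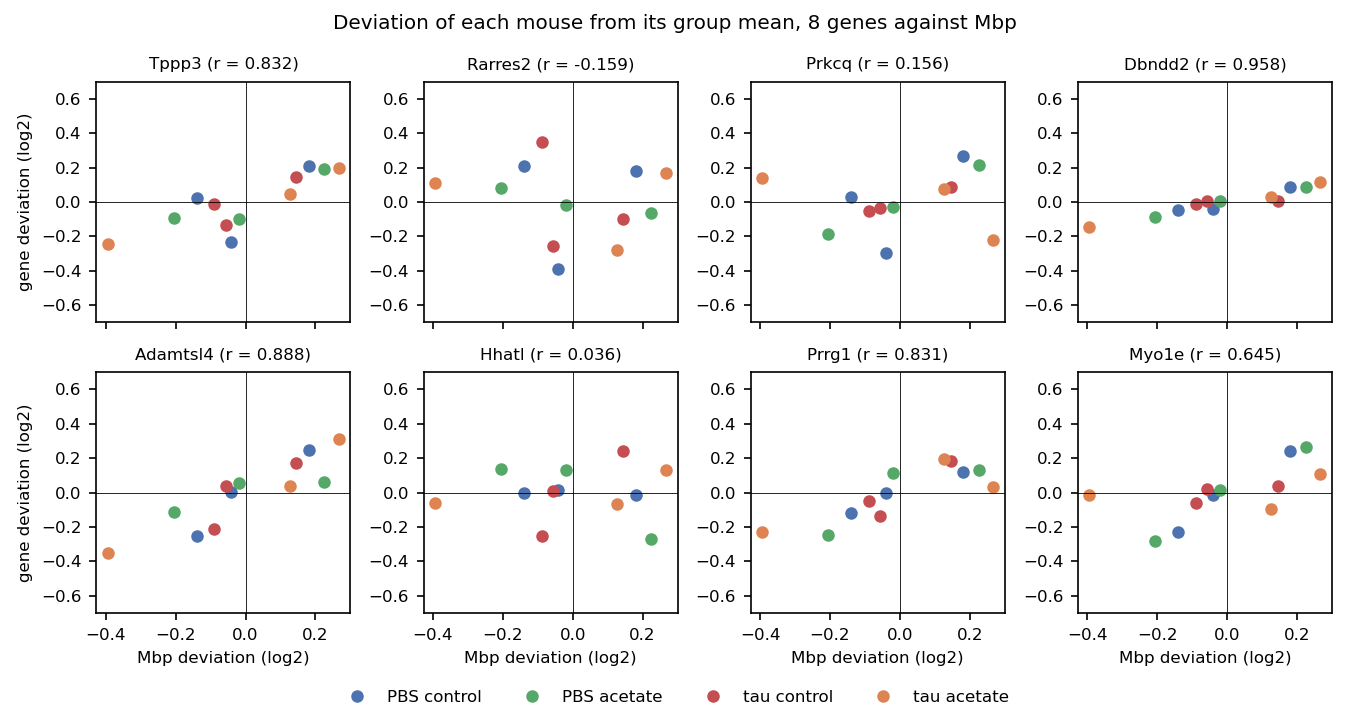
Deviation of each of the 12 mice from its group mean (log2 CPM) for the 8 genes, on the vertical axes, against that for Mbp, on the horizontal axes, with the Pearson r of the deviations. Points of Dbndd2 (r = 0.958) and Adamtsl4 (r = 0.888) lie along a rising line, whereas those of Rarres2 (r = -0.159) and Hhatl (r = 0.036) are scattered.

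With Foxj1, 0 of the 8 genes passed by the exact permutation test, and r ranged from -0.219 (Prkcq) to 0.537 (Rarres2, p = 0.173, adjusted p = 0.428). With Ttr 0 of 8 passed, and r ranged from -0.75 (Dbndd2, exact permutation p = 0.0694, adjusted p = 0.238) to 0.214 (Prkcq). Prrg1 with Ttr (r = -0.691, exact permutation p = 0.0340, adjusted p = 0.142) had an unadjusted p below 0.05. Mbp and Ttr were themselves inversely related within groups at r = -0.767 (exact permutation p = 0.0679), and without the 2 mice farthest in Ttr the r of Dbndd2 with Ttr was -0.379. Among the 28 pairs of the 8 genes, 1 passed after adjustment over the 28, Dbndd2 with Adamtsl4 (r = 0.844, exact permutation p = 0.000772, adjusted p = 0.0216). The median r of the 28 pairs was 0.324, and the range was -0.358 (Prkcq with Hhatl) to 0.844.

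Fitting the level of a reference gene as a covariate gives the interaction of each gene at a fixed level of that reference. Mbp and Foxj1 themselves differ between the groups, so a covariate and the groups overlap, and these values are a description. With Mbp as a covariate the median interaction of the 8 genes was 0.40, against 1.09 without. Adamtsl4 went from 1.15 to 0.09 (SE 0.280), Dbndd2 from 0.56 to 0.15 (SE 0.118), Myo1e from 0.84 to 0.26 (SE 0.289) and Prrg1 from 1.03 to 0.30 (SE 0.334). Rarres2 (1.86, SE 0.476), Prkcq (1.17, SE 0.359) and Hhatl (0.61, SE 0.339) stayed near their values without the covariate, and Tppp3 lay between (0.50, SE 0.223). Rarres2, Prkcq and Hhatl also had the lowest within-group r with Mbp, the relation from which such a fit takes its slope.

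With Foxj1 as a covariate the median was 0.81, and the greatest change was in Rarres2, from 1.70 to 0.88 (SE 0.510). With Ttr it was 1.19, with values from 0.63 (Dbndd2) to 1.67 (Rarres2). In these 3 fits the interaction was above 0 for 8 of 8 genes. For the tau difference on the control diet the median was -0.26 with Mbp, -0.51 with Foxj1 and -0.60 with Ttr, below 0 for 8 of 8 genes in each.

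**Figure D4:**
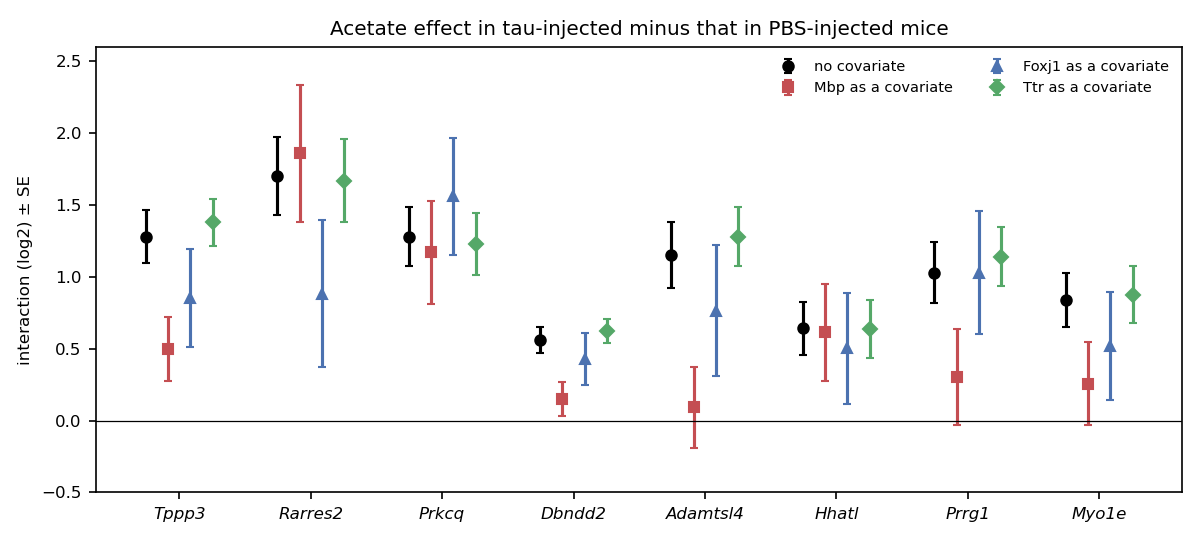
Interaction (acetate difference in tau-injected minus that in PBS-injected mice, log2, with SE) of the 8 genes in the edgeR fit without a covariate and with log2 CPM of Mbp, Foxj1 or Ttr as a covariate. With Mbp, the values of Adamtsl4, Dbndd2, Myo1e and Prrg1 fell to between 0.09 and 0.30, whereas Rarres2 remained at 1.86; with Foxj1, Rarres2 was at 0.88.

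The log2 ratio of each gene to Mbp fixes at 1 the slope that the covariate fit estimates. The interactions of Hhatl, Dbndd2, Myo1e and Prrg1 differ in sign between the 2 measures (0.61, 0.15, 0.26 and 0.30 with the covariate). The interaction of the mean log2 ratio to Mbp was 0.55 for Rarres2, 0.15 for Tppp3 and 0.14 for Prkcq, where the gene's estimate exceeded that of Mbp. It was near 0 for Adamtsl4 (0.0012) and Prrg1 (-0.08), and -0.27 for Myo1e, -0.45 for Hhatl and -0.54 for Dbndd2, where the estimate of Mbp was greater. The ratios carry no SE and were not tested. Those of Tppp3, Prkcq, Adamtsl4 and Prrg1 are smaller than the SE of the Mbp interaction (0.252). Relative to Foxj1 all 8 ratios had an interaction below 0, from -0.30 (Rarres2) to -1.38 (Dbndd2).

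The genes whose log2 CPM was most like each of the 8 over the 12 mice, group differences included, differed between genes. For Dbndd2 these were Mbp (r = 0.971), Plekhb1 (0.969) and Gjb1 (0.964), and for Adamtsl4 they were Hapln2 (0.966), Tmem125 (0.964) and Mag (0.958), among them genes of the myelin sheath and its gap junctions. Tppp3 was nearest to Fa2h (0.954), Lamp1 (0.950) and Plekhb1 (0.949), Prrg1 to Bcas1 (0.953), Slain1 (0.952) and Lpar1 (0.947), and Myo1e to Prr5l (0.947), Tmem125 (0.918) and Kif13a (0.911). Rarres2 was nearest to Smim5 (0.934), Pifo (0.930) and Mia (0.928), and Prkcq to C330013E15Rik (0.870), Cfap43 (0.863) and Fbln7 (0.854). Pifo and Cfap43 are genes of motile cilia. Smim5, Pifo, Mia and C330013E15Rik were low, with means of 0.607, 0.673, 1.01 and 0.918 CPM. Within groups, r with Rarres2 was 0.86 for Smim5, 0.61 for Pifo and 0.835 for Mia. With Prkcq it was 0.762 for C330013E15Rik, 0.40 for Cfap43 and 0.355 for Fbln7. Hhatl was nearest to Cln3 (0.917), Tmod1 (0.915) and Snx24 (0.909). Since group means shaped both sides, these values carry no test.

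Marker lists place the 8 genes beside whole cell types. The tau difference on the control diet and the interaction chose the 8 genes, so a likeness to a list in these values is a description. Of 20 mature oligodendrocyte genes, 20 were below 0 for tau on the control diet (median -0.60, 0 called by edgeR) and 20 above 0 for the interaction (median 1.09). Those called for the interaction by edgeR included Gjb1 (1.35, adjusted p = 0.0466) and Fa2h (1.21, adjusted p = 0.0466), and 0 of the 20 for the average acetate effect (median -0.02). Their summed level was 8307 to 10760 CPM in PBS control, 5257 to 7229 in PBS acetate, 5559 to 6747 in tau control and 6339 to 10210 in tau acetate mice. The 7 oligodendrocyte precursor genes had a median of 0.04 for tau on the control diet and 0.09 for the interaction, with 0 called. The part of oligodendrocyte content in the values of the 8 genes was not tested beyond the covariate fits.

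Ependymal genes had the pattern with a wider swing. All 11 were below 0 for tau on the control diet (median -0.95, 0 called by edgeR) and above 0 for the interaction (median 2.03). For the interaction 6 were called, led by Cfap43 (1.94), Pifo (3.03) and Dynlrb2 (2.88). Pifo averaged 1.06 CPM in PBS control and 0.94 in tau acetate mice, but 0.33 in PBS acetate and 0.36 in tau control mice. It passed the filter only through the groups where it is high, and its interaction rests on few reads in the others. Dynlrb2 was also low, at a mean of 1.26 CPM. Their summed level was 53.0 to 57.9 CPM in PBS control, 23.9 to 25.6 in PBS acetate, 22.6 to 40.5 in tau control and 33.0 to 71.5 in tau acetate mice. Of 14 choroid plexus genes tested, 9 were above 0 for tau on the control diet (median 0.15) and 13 above 0 for the interaction (median 1.29), with Folr1 called (2.92). Their summed level ran from 91.9 to 521.7 CPM within the tau acetate group alone. The acetate difference was also taken within each injection, and the interaction above is the test of whether these differ. In PBS-injected mice 7 of the 20 mature oligodendrocyte and 9 of the 11 ependymal genes were called lower by edgeR (list medians -0.52 and -1.30), where 8.84% of all genes (1303 genes) were called in either direction. In tau-injected mice 0 of 20 (median 0.53) and 0 of 11 (0.78) were called, and 0.0611% of all genes (9 genes). At an unadjusted p below 0.05, 1469 genes were higher and 1593 lower in PBS-injected mice, against 806 and 797 in tau-injected mice. DESeq2 called 1371 and 175 genes. The count in PBS-injected mice was 15 without PBS acetate mouse 2, 248 without PBS control mouse 3, 315 without PBS acetate mouse 1 and 727 without PBS control mouse 1, and that in tau-injected mice ranged from 1 (without tau control mouse 2 or 3) to 66 (without tau acetate mouse 3).

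How much ependymal or choroid tissue contributes to the values of Rarres2, Tppp3 and the other genes was not tested beyond the covariate fits.

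Medians of the other cell types stayed closer to 0 in the interaction, although some lists also moved as a whole. For the interaction the median was 0.05 over 7 astrocyte genes, with Aqp4 called (0.35), and 0.04 over 7 microglial, 0.06 over 7 endothelial, -0.28 over 7 mural and -0.14 over 11 meningeal genes, with 0 called in the last 4 lists. T-cell genes are of interest because Prkcq is best known in these cells. Of the 7, Zap70 (mean 5.65 CPM) and Lck (1.46) passed the filter, and their interactions were -0.05 (SE 0.352) and -0.95 (SE 0.475), with 0 called. Cd3e, Cd3d, Cd3g, Cd4 and Cd8a did not pass the filter, with at most 23 reads each over all 12 mice. The summed level of Zap70 and Lck was 6.57 to 9.84 CPM in PBS control and 6.65 to 7.60 in PBS acetate mice. In tau control and tau acetate mice it was 6.06 to 9.35 and 4.24 to 7.29 CPM. The part of T-cell genes in the values of Prkcq was not tested. The dissected tissue carried hippocampal neuron markers, with summed levels of 371.6 to 612.5 CPM for the dentate, 331.7 to 671.8 for the CA1 and 219.2 to 520.3 for the CA3 list over the 12 mice. For the average acetate effect the 4 CA1 genes were above 0 (median 0.43, Pou3f1 called) and the 5 CA3 genes below 0 (median -0.55, Nectin3 and Grik4 called). The call of Pou3f1 ended in 4, that of Nectin3 in 4 and that of Grik4 in 7 of 12 cases of a mouse left out. In the interaction the CA1 median was -0.42 and the CA3 median 0.56, with 0 called. For tau on the control diet, 5 of 5 CA3 genes were below 0 (median -0.35), with 0 called. There 4 of 4 CA1 genes were above 0 (median 0.33), with 0 called. With acetate in PBS-injected mice, edgeR called 4 of 5 CA3 genes lower and 3 of 4 CA1 genes higher (8.84% of all genes in either direction). Of 7 mural genes, 7 were above 0 for tau on the control diet (median 0.25) and 7 below 0 for the interaction. The part of these cells in the values of the 8 genes was not tested.

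**Figure D5:**
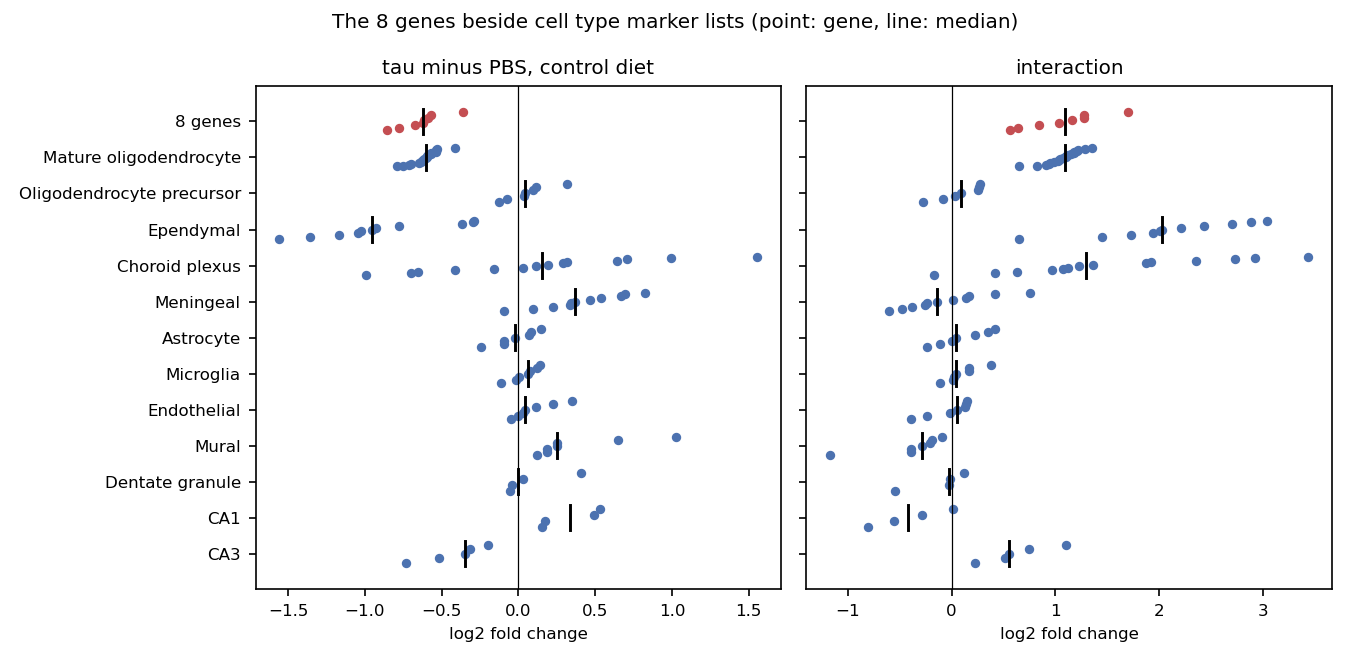
Log2 fold changes of the 8 genes (red) and of marker genes of 12 cell types or hippocampal fields (blue) for the tau difference on the control diet and for the interaction; each point is a gene and vertical lines are medians. The medians of the 8 genes (-0.62 and 1.09) lie beside those of mature oligodendrocyte genes (-0.60 and 1.09). Both axes show the values that chose the 8 genes, so where these lie is a description. Rarres2 and Dbndd2 lie outside the range of the oligodendrocyte genes in both panels, and Hhatl in that of the interaction. Ependymal genes lie further from 0 (-0.95 and 2.03), and oligodendrocyte precursor genes are near 0.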

How the data were processed

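PolyA RNA of the dorsal hippocampus was measured in 12 mice. The authors aligned reads with STAR 2.5.2a to GRCm38 and counted reads on exons with HTSeq 0.9.1 on the reverse strand, and deposited raw counts per gene, 1 column per mouse. No sample column was left unused. Of 24985 genes, 5357 had no count, and filterByExpr (minimum count 10, minimum total 15) kept 14742. Counts were fitted in R 4.3.3 with edgeR 4.0.16 (TMM, robust quasi-likelihood F test, 1 mean per group over all mice, 8 residual degrees of freedom, common biological coefficient of variation 7.25%), with Benjamini-Hochberg adjustment over the 14742. The threshold was 0.1, with 0.05 as an alternative, and DESeq2 1.42.0 was the other tool. Log2 CPM used a prior count of 2. Scripts were tested on simulated data. No source says that littermates or batches separate the mice, so p-values measure the spread between these mice. The members and lists were chosen with earlier results of these data known. Genes named are the 8, Mbp, Foxj1, Ttr, called or extreme members of the 21 lists, and the 3 genes most like each of the 8; 1 list member is not reported here. Alternatives were DESeq2's size factors, no filter, a replicate block, marker covariates, Spearman's rho, a prior count of 0.5 and each mouse left out. Of the gene symbols, 24534 had coordinates in GENCODE on GRCm38, the build of the counts. Promoter sequences are from RefSeq on GRCm38.p6.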

Additional observations from a re-analysis of the deposited data

Results flagged for a closer look

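Groups of 3 mice were too small to look for single outlying mice by a gap test. Genes outside the 8 were listed where the acetate difference in tau-injected mice differed from that in PBS-injected mice by edgeR's interaction test at an adjusted p below 0.1. Of the many genes that passed, those given are Foxj1 and, for each list of marker or family genes, at most the 3 with the smallest p. Among ependymal genes, of which 6 were called, these were Foxj1 (2.00, SE 0.351, adjusted p = 0.0466), Cfap43 (1.94, SE 0.364, adjusted p = 0.0417), Pifo (3.03, SE 0.571, adjusted p = 0.0417) and Dynlrb2 (2.88, SE 0.560, adjusted p = 0.0435). Pifo, at a mean of 0.673 CPM, passed the filter only through the groups where it is high. Among oligodendrocyte genes they included Gjb1 (1.35, SE 0.248, adjusted p = 0.0466) and Fa2h (1.21, SE 0.212, adjusted p = 0.0466). From the other lists came Folr1 of the choroid plexus (2.92, SE 0.707, adjusted p = 0.0755), the astrocytic water channel gene Aqp4 (0.35, SE 0.0869, adjusted p = 0.0755) and Myo1d (0.81, SE 0.190, adjusted p = 0.0755). All values are on the log2 scale and above 0, the direction of the 8 genes. Without PBS acetate mouse 2 the calls of these 9 genes ended, at adjusted p from 0.146 to 0.223, with the values still above 0. Leaving out other single mice also ended the calls of Gjb1 and Fa2h (tau control mouse 2), of Pifo and Dynlrb2 (tau acetate mouse 1), and of Folr1, Aqp4 and Myo1d in 9, 6 and 9 of 12 cases in all.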

How the results depend on the processing

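The tau difference on the control diet and the interaction kept their direction for the 8 genes in all 128 values each from DESeq2's size factors, no filter, DESeq2, the replicate block and single mice left out, and in the 24 each with a marker covariate. These 2 contrasts chose the genes and the settings reuse the same mice, so the steady direction is a description and no independent support. With Mbp as a covariate, tau minus PBS on the acetate diet turned to -0.0785 for Adamtsl4 and -0.0118 for Myo1e, and acetate minus control diet in PBS-injected mice to 0.13 and 0.0043; with Foxj1 the same differences of Hhatl were -0.051 and 0.0011. The cause was not tested. Same-numbered mice are not paired by the labels, and their deviations from the group means correlated at -0.105 to 0.144 in 18 pairs, 2 of them above 0.1. With the replicate block, calls outside the 8 genes were 342 for the interaction (223 without), 6 for tau on the control diet (2 without) and 758 for the average acetate effect (849 without). DESeq2 called 427, 79 and 1056. At an adjusted p below 0.05 calls were 37, 0 (with 1415 genes at an unadjusted p below 0.05) and 389. Spearman's rho called 2 of the 24 within-group pairs, Pearson's r 4.

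With single mice left out, calls ranged from 4 (PBS acetate mouse 2) to 435 (tau acetate mouse 3) for the interaction, from 0 to 13 for tau on the control diet, from 221 (PBS acetate mouse 2) to 1092 (PBS acetate mouse 3) for the average acetate effect, and from 2 to 6 for within-group pairs. Values that crossed 0 in this way were, for Hhatl, tau on the acetate diet (-0.102 to 0.0873) and acetate in PBS-injected mice (-0.143 to 0.047); for the average acetate effect, Rarres2 (-0.152 to 0.0348), Prkcq (-0.133 to 0.0107), Dbndd2 (-0.00614 to 0.0581) and Mbp (-0.0896 to 0.0634); and the interaction of Ttr (-0.170 to 2.34). Within-group r crossed 0 with Foxj1 for Adamtsl4 (-0.282 to 0.400), Dbndd2 (-0.237 to 0.461), Hhatl (-0.174 to 0.378), Prkcq (-0.334 to 0.159) and Prrg1 (-0.195 to 0.515), with Mbp for Hhatl (-0.160 to 0.456) and Prkcq (-0.0481 to 0.596), and with Ttr for Hhatl (-0.159 to 0.459), Prkcq (-0.143 to 0.340) and Rarres2 (-0.223 to 0.310). Depth limits Rarres2 and Prrg1 most, at 52 to 194 reads per mouse.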
